A study of Mus musculus with 6 samples.

Results

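The nuclear genes that encode the mitochondrial respiratory chain were examined as one set in mouse BCR-ABL1 transformed pre-B cells. A gene belonged to the set when a probe set (the group of probes that reports 1 transcript) carried exactly 1 gene symbol and that symbol began with Nduf, Uqcr, Cox followed by a digit, or Atp5, or was Sdha, Sdhb, Sdhc, Sdhd, Cycs or Cyc1. Symbols ending in -ps were left out, as were 7 probe sets that carry such a symbol together with another one. The rule found 99 genes of the 19938 named genes on the array, read by 126 probe sets, and the probe set with the highest mean stood for each gene. Sorted by complex they were 34 genes of complex I, 4 of complex II, 10 of complex III with cytochrome c, 19 of complex IV, 17 of complex V and 15 assembly factors.

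The study hybridised 6 Affymetrix arrays, 3 for each of 2 groups, and its values are log2 signal intensities. All 6 samples were total RNA from C57BL/6 cells with the genotype Inpp5d fl/fl, so that both groups carry the floxed alleles of Inpp5d, the gene of the inositol phosphatase SHIP1. The control group had been transduced with PMIP-ERT2 and the other with PMIP-CRE-ERT2, a Cre recombinase that works once 4OH-tamoxifen is present. Both groups had 0.5 µM 4OH-tamoxifen for 2 days and were selected with puromycin, and the comparison asks what differs between cells with and without the inducible recombinase. A group with Cre but no floxed allele and a group without tamoxifen were not analysed here, so an effect of Cre itself cannot be told apart from one of the floxed gene. The labels do not say whether the replicates were separate cultures, so every p-value rests on the scatter among these arrays, part of which may be technical.

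The respiratory chain sits in the inner mitochondrial membrane. Complex I takes electrons from NADH and complex II takes them from succinate, coenzyme Q and cytochrome c carry them through complex III to complex IV, which passes them to oxygen, and complex V uses the proton gradient so built to make ATP. Most subunits are encoded in the nucleus and imported, while a small hydrophobic core is encoded in mitochondrial DNA, and dedicated assembly factors bring both together without staying in the finished complex. Proliferating lymphoid cells use the chain for ATP and to regenerate the electron acceptors that nucleotide and aspartate synthesis need.

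The labels and libraries were checked first. Inpp5d read 13.20, 13.21 and 13.17 on the ERT2 arrays and 13.37, 13.34 and 13.34 on the arrays labelled Cre-ERT2, a difference of 0.16 ± 0.041 (SE) with a limma adjusted p of 0.0545. The targeted transcript was thus not lower in the group meant to lose it, and the sources used here do not say if its probe set reads the floxed exons, so the second group is called the arrays labelled Cre-ERT2 throughout. Array pairs correlated at 0.988 to 0.997, and the array labelled Cre-ERT2 3 correlated best with ERT2 3 and then with ERT2 1, both in the other group. Of the 12 pre-B cell markers on the array all 12 passed the filter on dim genes, among them Rag2, which fell, and Dntt, which rose. Of 11 myeloid markers 5 passed the filter and 2 rose (Lyz1 and Lyz2), and the summed myeloid level was 11.13 to 11.21 (log2) in the ERT2 arrays against 11.48 to 11.53 in the arrays labelled Cre-ERT2. The 5 did not all follow that sum: 2 lay below 0, and at an unadjusted limma p under 0.05, 2 were higher and 1 lower. The summed level of 11 T and NK cell markers ran against the myeloid sum, from 11.81 to 11.86 down to 11.54 to 11.57, and 1 of the 6 past the filter (Cd2) fell. Gene by gene the T and NK cell markers did not follow their sum. Of the 6, 4 lay above 0 and the median difference was 0.10. At an unadjusted limma p under 0.05, 3 were higher and 1 lower. Summed stromal markers read 11.42 to 11.50 against 11.52 to 11.72, with 8 of 11 past the filter and none called. All 8 lay above 0, with a median difference of 0.16, and 4 were higher and none lower at an unadjusted limma p under 0.05. Of 7 erythroid and megakaryocyte markers 4 passed the filter with none called. Whether a few cells of another type contribute to the differences given here was not tested.

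Over the whole set the differences were small, and most pointed down in the arrays labelled Cre-ERT2. Of 98 genes past the filter, 6 fell (Ndufaf1, Ndufb6, Atp5e, Atp5mpl, Uqcr10 and Ndufa4) and 1 rose (Cox6b2) at a limma adjusted p under 0.05. That is 7.14% of the set beside 7.62% of all 14953 genes tested, so the share of calls was near the background; for falls alone it was 6.12% beside 4.13%, and for rises alone the background was 3.5%. The median difference, arrays labelled Cre-ERT2 minus ERT2, was -0.068 on the log2 scale beside 0.026 over all genes tested; it was -0.044 without ERT2 1 and -0.039 without Cre-ERT2 2. The all-gene median depended on signal level and was above 0 in the 4 dimmest of 10 equal groups (deciles) by mean log2 value, which hold 8 of the 98 genes. In decile 10, the brightest, the set's median was -0.019 (37 genes) beside -0.0090 for all genes there, in decile 9 -0.11 (20 genes) beside -0.030, and in decile 8 -0.050 (13 genes) beside -0.044. In deciles 7, 6 and 5 it was -0.15 (7 genes), -0.15 (5 genes) and -0.19 (8 genes) beside -0.061, -0.054 and -0.0055. The set thus lay near all genes of like signal in deciles 8 and 10 and further below them in deciles 5, 6, 7 and 9. In deciles 2 and 4 it lay above them, at 0.24 (2 genes) and 0.19 (3 genes) beside 0.12 and 0.088. In decile 3 it lay below them, at -0.095 (3 genes) beside 0.12. A difference below 0 was found for 70 of the 98 genes (71.4%) and for 43.4% of all genes. At an unadjusted p under 0.05 the set held 30 lower and 5 higher genes, 30.6% and 5.10%, beside 14.4% and 19.0% of all genes. In 32 genes all 3 arrays labelled Cre-ERT2 lay below all 3 ERT2 arrays (32.7% beside 17.7%), in 7 they all lay above (7.14% beside 20.7%), and in 59 the groups overlapped. These counts describe the set, and no test of the set as a whole was made.

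Single differences were small. No gene of the set differed by 0.5 or more, and 53 differed by under 0.1. The 95% interval of the difference lay within 0.5 of 0 for 94 of the 98 genes and within 0.25 of 0 for 61. A further 18 lower and 3 higher genes had an adjusted p between 0.05 and 0.1. The 6 genes that fell did so by 14.3% to 24.6% on the linear scale of the intensities. How many genes were called depended on single arrays: none passed in the fit lacking ERT2 1 (0.776% of all genes did) or in that lacking Cre-ERT2 1 (0.91%). Without ERT2 2, 2 fell and none rose (1.3% of all genes called), and without ERT2 3, 1 fell and none rose (2.32%). Without Cre-ERT2 2, 1 fell and 1 rose (3.51%), and without Cre-ERT2 3, 17 fell and 3 rose (20.3%). At an unadjusted p under 0.05 the fit without ERT2 1 held 18 lower and 4 higher genes of the set and that without Cre-ERT2 1 26 and 4. With each array centred on its median in place of the deposited scaling, 38 fell and none rose, with 20.2% of all genes called; the median over all genes then moved from 0.026 to -0.077 and that over the set to -0.17. In that setting 1 gene of the set was higher at an unadjusted p under 0.05.

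**Figure D1:**
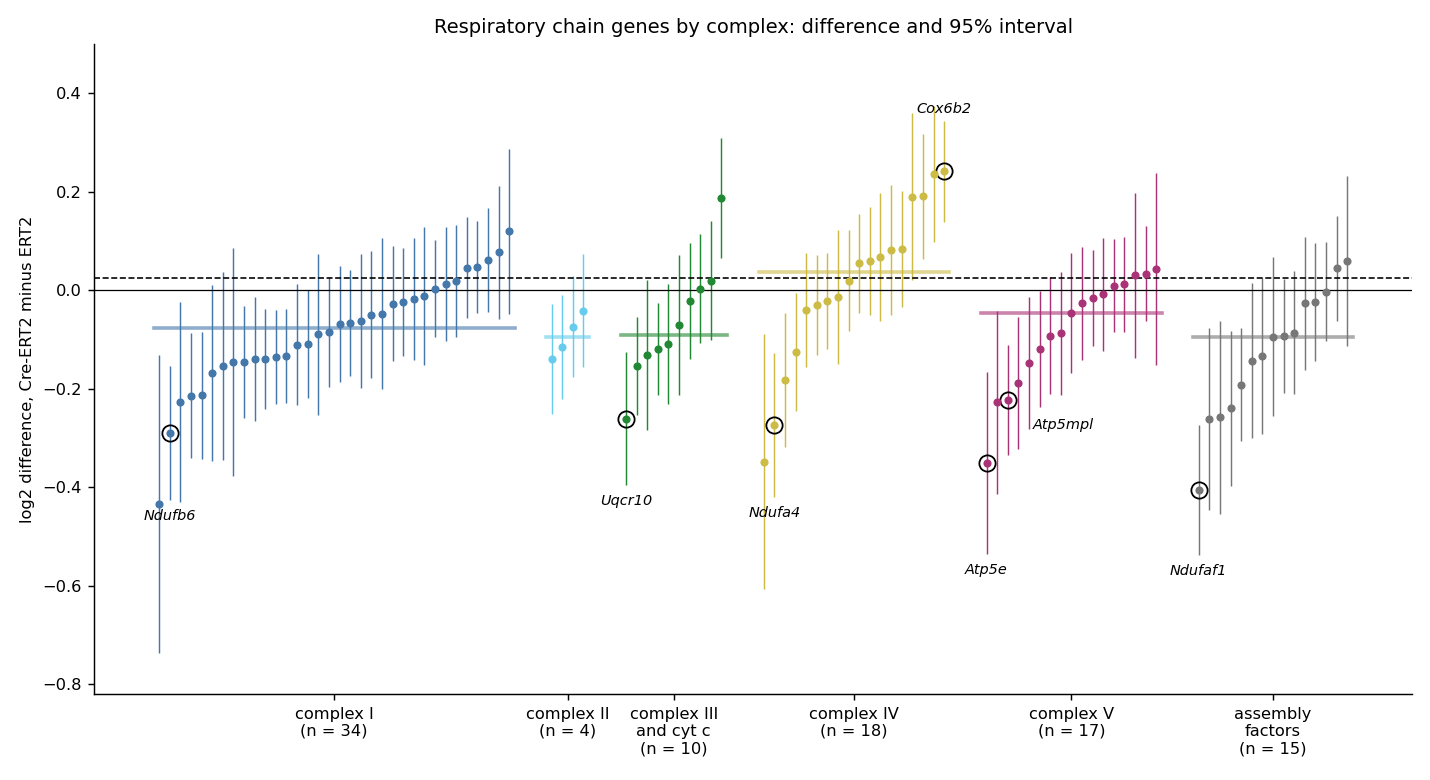
Log2 difference, arrays labelled Cre-ERT2 minus ERT2, for the 98 genes past the filter, sorted within each complex. Points are single genes with limma's 95% interval, ringed and named where the adjusted p was under 0.05; thick bars are the medians of each complex, from -0.095 in complex II to 0.037 in complex IV, and the dashed line is the median of all genes tested, 0.026.

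The array by array view shows where the shift lies. The median deviation of the set's genes from their own means was 0.047, 0.020 and 0.035 on the ERT2 arrays and -0.032, -0.054 and 0.0060 on the arrays labelled Cre-ERT2. The groups did not overlap in this measure, and the third array labelled Cre-ERT2 stood nearest to the controls. It was the highest of the arrays labelled Cre-ERT2 in 61 of the 98 genes and in 5 of the 6 that fell, while Cre-ERT2 2 was the lowest in 55. Among all genes tested Cre-ERT2 3 was the highest of them in 5175 of 14953. The low place of Cre-ERT2 2 was not particular to the set at like signal. In each of deciles 5 to 10 the median deviation of all genes was also lowest on Cre-ERT2 2, between -0.094 and -0.016. Cre-ERT2 3 was the highest of the arrays labelled Cre-ERT2 in deciles 5 to 9. In decile 10, which holds 37 genes of the set, it was not, at -0.00049 beside 0.0057 on Cre-ERT2 1. In complexes I, II and III and among the assembly factors the groups did not overlap either, in complex V they did, and in complex IV the 6 medians lay between -0.028 and 0.013 with the groups mixed.

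**Figure D2:**
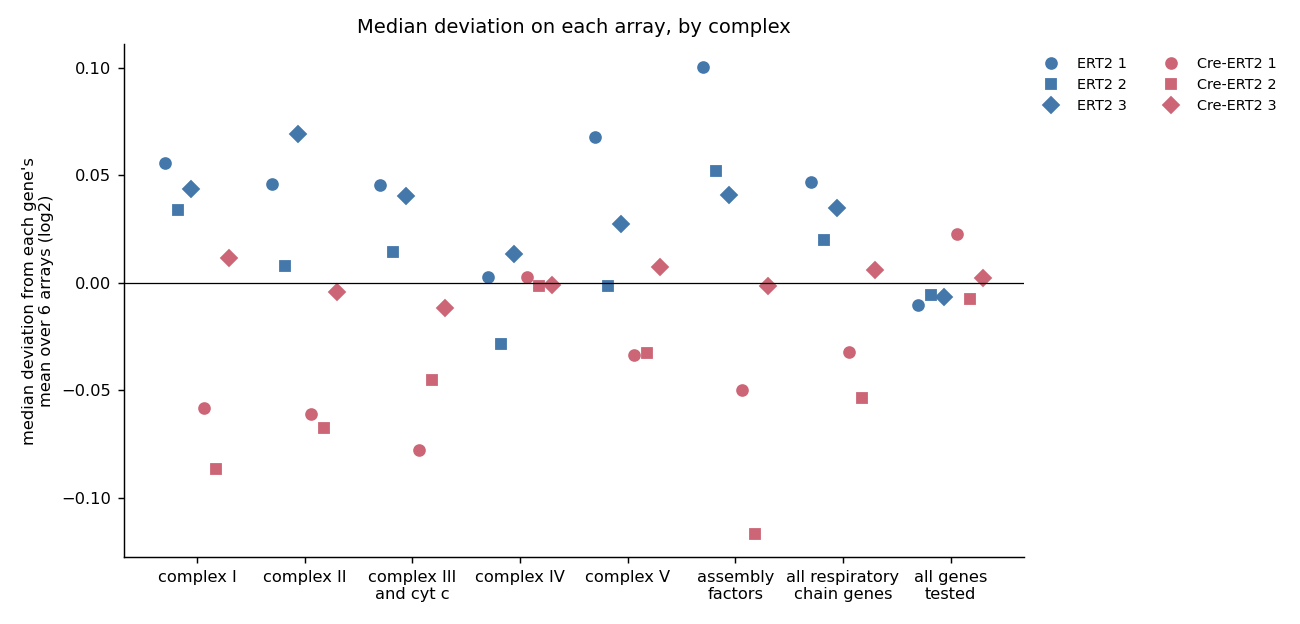
Median over genes of the deviation from each gene's mean over 6 arrays (log2), for each complex, the whole set and all genes tested; blue marks are the ERT2 arrays and red marks the arrays labelled Cre-ERT2, with the shape giving the replicate. For the whole set the ERT2 arrays lie between 0.020 and 0.047 and the arrays labelled Cre-ERT2 between -0.054 and 0.0060; in complex IV they are mixed.

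Nuclear respiratory chain genes are known to share promoter elements for the factors NRF1 and GABPA (also called NRF2), so the promoters were read next. RefSeq windows of 300 bases (250 before and 50 after the annotated start) existed for 80 of the 99 genes. Searched on both strands, the NRF1 letters (GCGC, any base, then TGCGC) stood in 18 of the 80 (22.5%) and in 5.19% of all 27025 genes with a window, or 9.81% of tested genes. The GABPA letters CCGGAAG stood in 22 (27.5%) beside 9.93% and 17.1%. At least 1 of these was present in 36 of the 80 (45%), beside 14% of all and 24.7% of tested genes. By complex, a match stood in 10 of 31 windows of complex I, 3 of 3 of complex II, 3 of 6 of complex III with cytochrome c, 3 of 13 of complex IV, 10 of 15 of complex V and 7 of 12 of the assembly factors. The tested genes with a match had a median difference of -0.086 (36 genes) and those without one of -0.067 (43 genes), and 3 genes of each kind passed the test. A match is a description of letters and not a bound site.

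The promoters of 5 genes are given as 200 bases (170 before and 30 after the start), on build GRCm38.p6 from RefSeq and written 5′ to 3′ in the direction of the gene, with matches in capitals. Ndufaf1, Atp5e and Uqcr10 are 3 of the genes that fell, Sdhd holds both NRF1 and GABPA letters, and Cox6a1 holds both as well while its difference was 0.082.
Ndufaf1 (chr2:119662805-119663004, minus strand): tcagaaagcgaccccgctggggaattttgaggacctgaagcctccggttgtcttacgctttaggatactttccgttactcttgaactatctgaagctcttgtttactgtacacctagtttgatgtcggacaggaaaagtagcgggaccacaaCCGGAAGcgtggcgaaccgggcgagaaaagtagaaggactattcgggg
Atp5e (chr2:174464072-174464271, minus strand): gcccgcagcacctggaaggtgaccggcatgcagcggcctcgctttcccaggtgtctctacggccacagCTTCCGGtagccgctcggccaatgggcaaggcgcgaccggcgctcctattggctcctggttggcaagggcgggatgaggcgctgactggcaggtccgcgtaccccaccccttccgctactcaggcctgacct
Uqcr10 (chr11:4704315-4704514, minus strand): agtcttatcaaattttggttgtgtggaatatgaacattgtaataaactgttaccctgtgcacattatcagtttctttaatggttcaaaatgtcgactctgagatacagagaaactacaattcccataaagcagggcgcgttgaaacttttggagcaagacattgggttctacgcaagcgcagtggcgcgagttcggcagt
Sdhd (chr9:50603820-50604019, minus strand): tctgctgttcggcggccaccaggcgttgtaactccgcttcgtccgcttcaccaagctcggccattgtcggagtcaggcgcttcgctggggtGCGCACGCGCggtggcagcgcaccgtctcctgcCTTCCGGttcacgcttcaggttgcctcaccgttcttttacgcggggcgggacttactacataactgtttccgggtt
Cox6a1 (chr5:115348929-115349128, minus strand): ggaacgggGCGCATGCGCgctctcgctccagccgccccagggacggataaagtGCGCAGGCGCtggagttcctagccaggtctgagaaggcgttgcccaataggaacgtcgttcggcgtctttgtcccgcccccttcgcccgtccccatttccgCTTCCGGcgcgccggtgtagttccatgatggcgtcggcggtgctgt
The capitals mark GABPA letters in Ndufaf1 and, on the reverse strand, in Atp5e. In Sdhd the first run of capitals is the NRF1 match and the second the GABPA match, both on the reverse strand. In Cox6a1 the first and second runs are NRF1 matches and the third a GABPA match on the reverse strand. The first of those NRF1 runs matches on both strands, and the second on the reverse strand. The Uqcr10 stretch holds neither motif.

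Complex I, the NADH dehydrogenase, had a median difference of -0.077 over 34 genes (-0.047 after cyclic loess). It held 26 genes below 0 (76.5%, beside 43.4% of all genes), 1 fall (2.94%, beside 4.13%) and no rise. Its accessory subunit gene Ndufb6, a part of the membrane arm, read 12.90, 12.70 and 12.81 on the ERT2 arrays (12.80 ± 0.10, SD, n = 3) and 12.46, 12.51 and 12.55 on the arrays labelled Cre-ERT2 (12.51 ± 0.044, n = 3). All 3 arrays labelled Cre-ERT2 lay below the lowest control. It fell by 18.2%, a log2 difference of -0.29 ± 0.059 (SE), with a limma adjusted p of 0.0312. Over the 6 fits that each left out 1 array that p ran from 0.026 without Cre-ERT2 3 to 0.133 without ERT2 1, and stayed under 0.05 in 2 of them. The 9 Ndufb genes, which belong to the membrane arm with the mitochondrially encoded proton pumps, had a median of -0.11 with 8 of 9 below 0.

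The 6 core genes, which belong to the arm that oxidises NADH and passes its electrons on, were split. Ndufv1, whose protein binds NADH and the flavin, read 11.46, 11.36 and 11.41 on the ERT2 arrays and 11.17, 11.14 and 11.29 on the arrays labelled Cre-ERT2, a difference of -0.21 ± 0.055 with an adjusted p of 0.0532. The largest iron-sulphur subunit, Ndufs1, gave 11.31, 11.29 and 11.22 against 11.07, 10.97 and 11.14, likewise -0.21 ± 0.056 with an adjusted p of 0.0545. The groups did not overlap in either gene, and neither passed the test. For the core genes Ndufs7, Ndufs8 and Ndufv2 the differences were 0.048, 0.061 and 0.0034, so that 3 of 6 core genes lay below 0 and their median was -0.041. Among the other 19 accessory genes 15 lay below 0, with a median of -0.068 and no call; 6 were lower at an unadjusted p under 0.05 and none higher. Ndufa1, chosen here after its values were seen because its difference was the furthest below 0 in the set, read 9.69, 9.53 and 9.74 against 9.31, 8.89 and 9.46. Its groups did not overlap, the SD among the arrays labelled Cre-ERT2 was 0.29, and the difference of -0.43, with an interval from -0.74 to -0.13, had an adjusted p of 0.0729. Ndufa2 gave the highest difference of complex I, 0.12, with overlapping groups and an adjusted p of 0.272.

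Complex II, succinate dehydrogenase, belongs to both the chain and the tricarboxylic acid cycle and is encoded wholly in the nucleus. All 4 genes had a difference below 0, with a median of -0.095, and none passed the test, while 2 were lower at an unadjusted p under 0.05. The membrane anchor gene Sdhd read 11.75, 11.66 and 11.76 on the ERT2 arrays and 11.62, 11.57 and 11.55 on the arrays labelled Cre-ERT2, a difference of -0.14 ± 0.048 with a limma adjusted p of 0.0939. Sdhb, the iron-sulphur subunit, gave 11.94, 11.95 and 11.95 against 11.81, 11.79 and 11.90, a difference of -0.12 ± 0.046 with an adjusted p of 0.126. The flavoprotein gene Sdha gave 12.64, 12.59 and 12.67 against 12.55, 12.54 and 12.58, a difference of -0.074 ± 0.045 and an adjusted p of 0.264. In these 3 genes (75% of the complex) all arrays labelled Cre-ERT2 lay below the controls, beside 17.7% of all genes tested. In Sdhc, the other anchor, the groups overlapped, with a difference of -0.041. The interval of Sdha, from -0.18 to 0.029, includes 0, while those of Sdhb and Sdhd end at -0.0094 and -0.029.

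Complex III passes electrons from reduced coenzyme Q to cytochrome c. With cytochrome c it had 10 genes, a median of -0.090, 7 differences below 0 (70%, beside 43.4% of all genes) and 1 fall (10%, beside 4.13%). The gene that fell, Uqcr10, encodes a small membrane subunit and read 11.23, 11.18 and 11.30 on the ERT2 arrays (11.23 ± 0.059, SD, n = 3) and 10.96, 10.89 and 11.07 on the arrays labelled Cre-ERT2 (10.97 ± 0.089, n = 3). Each array labelled Cre-ERT2 lay below each control. Uqcr10 fell by 16.6%, a log2 difference of -0.26 ± 0.059 (SE), with a limma adjusted p of 0.0386, which ran from 0.0196 without Cre-ERT2 3 to 0.148 without ERT2 1 and stayed under 0.05 in 1 of 6 such fits. Its promoter is the one above without a match.

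Other members of complex III went different ways. Uqcrfs1, the Rieske iron-sulphur protein, read 10.21, 10.27 and 10.22 against 10.07, 10.11 and 10.07 on the arrays labelled Cre-ERT2, a difference of -0.15 ± 0.043 with a limma adjusted p of 0.0631. Uqcr11, another small subunit, read 11.92, 12.02 and 11.96 against 12.14, 12.10 and 12.23, a difference of 0.19 ± 0.053 with an adjusted p of 0.0648. The groups did not overlap in either gene, in opposite directions, and neither passed the test. The core protein genes Uqcrc2 and Uqcrc1 gave -0.12 and -0.071. For cytochrome c1 (Cyc1) and cytochrome c (Cycs), which carry the haems at the end of this path, the differences were 0.0029 and 0.020 with overlapping groups, and the probe sets of Cycs disagreed in sign.

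**Figure D3:**
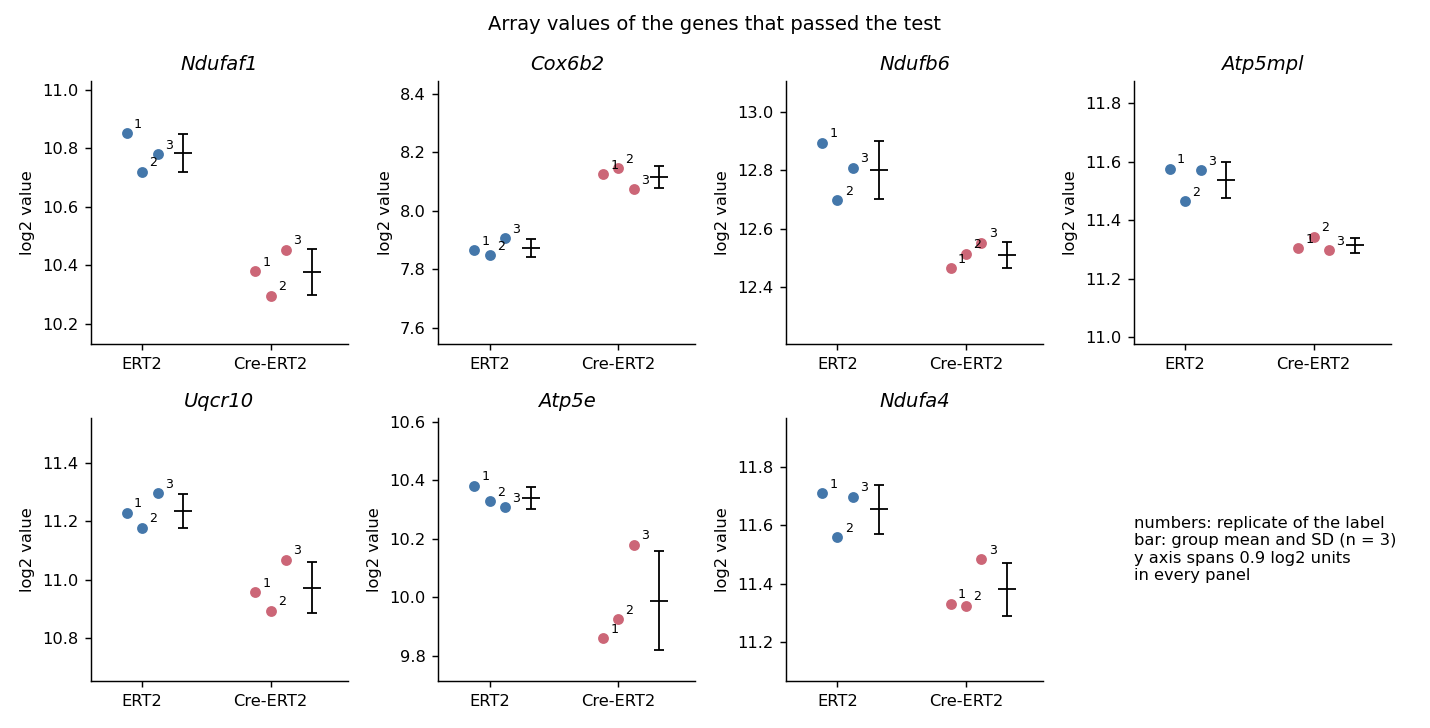
Log2 value on each array of the 7 genes with a limma adjusted p under 0.05, in order of that p; numbers give the replicate, horizontal ticks the group mean and bars the SD (n = 3). In each panel the groups do not overlap; Ndufaf1 averages 10.78 on the ERT2 arrays and 10.38 on those labelled Cre-ERT2, and Cox6b2 7.87 and 8.11.

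Complex IV, cytochrome c oxidase, differed from the other complexes in its median, which was 0.037 over 18 genes past the filter and turned to -0.065 with each array centred on its median and to -0.018 when dimmer genes were left out. It was 0.011 without ERT2 2, 0.021 without Cre-ERT2 2, 0.020 without Cre-ERT2 3 and 0.0035 after a second quantile normalization. Of the 18, 8 lay below 0 (44.4%, beside 43.4% of all genes), and 1 fell and 1 rose (11.1% called, beside 7.62%). Ndufa4, named for complex I but assigned to complex IV in later work, read 11.71, 11.56 and 11.70 on the ERT2 arrays (11.66 ± 0.084, SD, n = 3) and 11.33, 11.33 and 11.49 on the arrays labelled Cre-ERT2 (11.38 ± 0.090, n = 3). The lowest control stood above the highest of these. It fell by 17.3%, a log2 difference of -0.27 ± 0.064 (SE), with a limma adjusted p of 0.0412, which ran from 0.0204 without Cre-ERT2 3 to 0.165 without ERT2 1 and stayed under 0.05 in 1 of 6 such fits.

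Several complex IV subunits exist as a general form and as forms of particular tissues such as heart, skeletal muscle, lung and testis. The 10 general forms had a median of -0.018 with 6 below 0. Cox7a2 read 11.40, 11.57 and 11.49 against 11.33, 11.23 and 11.36, a difference of -0.18 with a limma adjusted p of 0.0834 and no overlap. The general forms of subunits 4, 6a, 6b and 8 lay close to 0. Cox4i1 read 12.05, 11.89 and 12.09 against 12.03, 11.98 and 11.97, a difference of -0.014 that was 0.013 after cyclic loess. Cox6a1 read 12.67, 12.51 and 12.70 against 12.73, 12.69 and 12.72, a difference of 0.082. There 2 of the 3 arrays labelled Cre-ERT2 lay above the highest control, and the lowest array was ERT2 2. Cox6b1 read 12.85, 12.80 and 12.87 against 12.84, 12.84 and 12.89, a difference of 0.019, and Cox8a read 13.23, 13.18 and 13.30 against 13.33, 13.29 and 13.27, a difference of 0.059. In these 4 genes the groups overlapped, and centring turned Cox6a1, Cox6b1 and Cox8a to -0.021, -0.083 and -0.043.

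The tissue forms stood on the other side. Of 8 genes 7 passed the filter, 6 of those lay above 0 and the median was 0.19. It was 0.11 without Cre-ERT2 2, 0.11 after a second quantile normalization and 0.12 after cyclic loess (5 of 7 above 0 in each of the latter), and 0.087 after centring, with 4 of 7 above 0. Cox6b2, a form known from testis, read 7.86, 7.85 and 7.91 on the ERT2 arrays (7.87 ± 0.030, SD, n = 3) and 8.12, 8.15 and 8.07 on the arrays labelled Cre-ERT2 (8.11 ± 0.037, n = 3). Every array labelled Cre-ERT2 lay above every control. It rose by 0.24 ± 0.045 (SE), or 18.3%, with a limma adjusted p of 0.0239. That p ran from 0.0203 without Cre-ERT2 3 to 0.123 without ERT2 1 over the fits that left out 1 array, and stayed under 0.05 in 2 of 6. It was 0.0894 after a second quantile normalization, 0.0605 after cyclic loess and 0.146 after centring, with differences of 0.135, 0.141 and 0.140.

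None of the other tissue forms passed the test. Cox8b, a muscle form, read 7.73, 7.69 and 7.74 against 8.05, 7.98 and 7.84, a difference of 0.24 with a limma adjusted p of 0.0517, and Cox8c, another testis form, read 8.70, 8.65 and 8.61 against 8.78, 8.94 and 8.81, 0.19 with 0.0678. The groups of both did not overlap. Cox6a2, of heart and skeletal muscle, read 8.36, 8.34 and 8.45 against 8.55, 8.73 and 8.44, a difference of 0.19 with overlapping groups. Cox4i2, a lung form, read 8.69, 8.76 and 8.77 against 8.79, 8.90 and 8.78, a difference of 0.084 that centring turned to -0.019. Ndufa4l2 gave 0.068. Cox7a1, of heart and skeletal muscle, read 9.56, 9.42 and 9.73 against 9.32, 8.97 and 9.37 and was the exception, at -0.35 with an adjusted p of 0.083. Cox7b2, the gene that failed the filter, read 6.07, 6.36 and 6.01 against 6.19, 6.13 and 5.97, with the groups overlapping; the next gene inside was Cox8b.

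The signal level of a probe set moved with these differences. Among all genes tested, sorted into the same deciles, the median difference was 0.11, 0.12, 0.12 and 0.088 in the lowest 4 deciles, up to a mean of 8.87, and between -0.061 and -0.0055 in the other 6. Of the 7 tissue forms, 6 lay in the lowest 4 deciles, and Cox7a1 lay in the decile above them. The dim genes were high on Cre-ERT2 2 and Cre-ERT2 1, with median deviations in the lowest decile of 0.12 and 0.064, and near 0 on Cre-ERT2 3, at -0.0082. The part of this shift in the rise of Cox6b2 and in the tissue forms was not tested. The 6 genes that fell lay in brighter deciles, where the medians of all genes were between -0.061 and -0.0090, and their own differences were -0.41 to -0.22. These 6 were picked for passing the test, so their place below those medians was set by the choice. The part of the shift in their falls was not tested either.

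**Figure D4:**
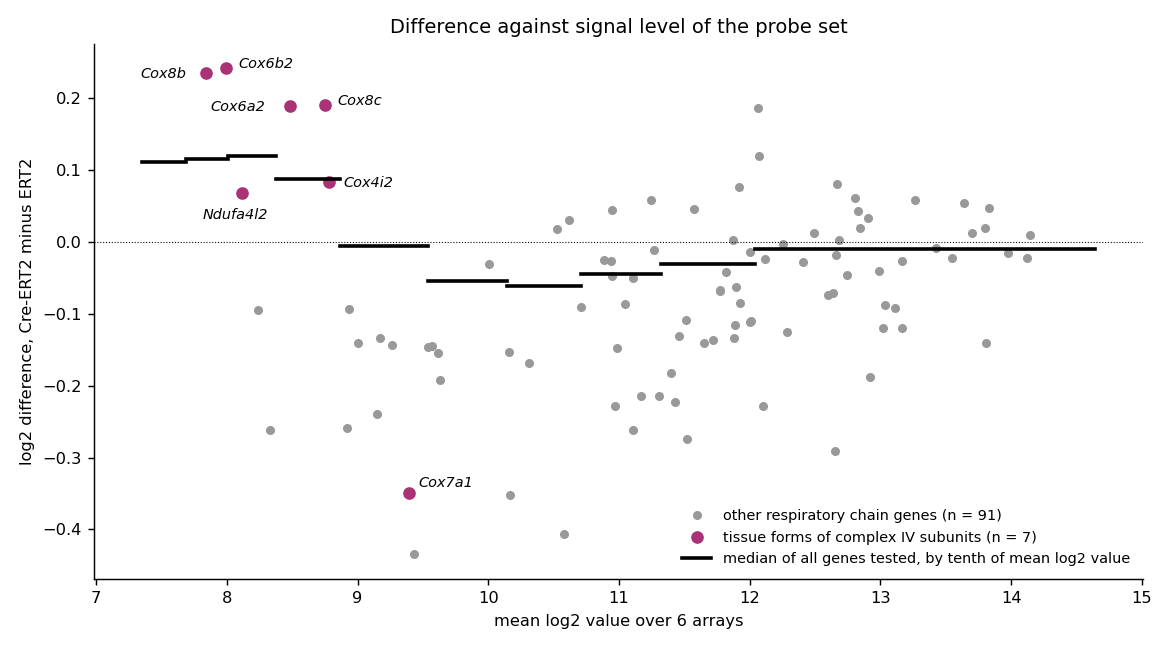
Log2 difference, arrays labelled Cre-ERT2 minus ERT2, against the mean log2 value of the probe set over 6 arrays for the 98 genes past the filter. Black bars are medians of all genes tested by decile of the mean, from 0.12 in dim deciles to -0.061; purple points are the 7 tissue forms of complex IV, 6 of which lie above 0, and the other 91 genes are grey.

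Complex V, the ATP synthase, had a median of -0.046 over 17 genes. It held 12 genes below 0 (70.6%, beside 43.4% of all genes), 2 falls (11.8%, beside 4.13%) and no rise. That median was -0.018 without ERT2 1 and likewise without Cre-ERT2 2, -0.028 after cyclic loess, -0.027 with probe sets averaged and -0.15 after centring. Atp5e, the epsilon subunit of the turning central stalk, read 10.38, 10.33 and 10.31 on the ERT2 arrays (10.34 ± 0.038, SD, n = 3) and 9.86, 9.93 and 10.18 on the arrays labelled Cre-ERT2 (9.99 ± 0.17, n = 3). The groups did not overlap, and the third array labelled Cre-ERT2 lay much nearer to the controls than the other two. Atp5e fell by 21.6%, a log2 difference of -0.35 ± 0.081 (SE), with a limma adjusted p of 0.0404. Without Cre-ERT2 3 that p was 0.0091, and without ERT2 1 it was 0.157. The fall was 0.45 in the first of these fits and 0.33 in the second.

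Atp5mpl, a small membrane proteolipid of the synthase, read 11.58, 11.46 and 11.57 on the ERT2 arrays (11.54 ± 0.063, SD, n = 3) and 11.30, 11.34 and 11.30 on the arrays labelled Cre-ERT2 (11.31 ± 0.025, n = 3). The groups did not overlap, and here Cre-ERT2 3 was not the highest of its group. It fell by 14.3%, a log2 difference of -0.22 ± 0.049 (SE), with a limma adjusted p of 0.0357, which ran from 0.0385 without Cre-ERT2 3 to 0.158 without ERT2 1 and stayed under 0.05 in 1 of 6 such fits, as for Atp5e.

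The parts of the synthase differed in their medians. The peripheral stalk, which holds the catalytic head still, had 4 of 4 genes below 0 and a median of -0.12, with no call and 2 lower at an unadjusted p under 0.05. Its subunit d gene, Atp5h, read 13.09, 12.96 and 12.99 against 12.80, 12.76 and 12.91, a difference of -0.19 ± 0.059 with a limma adjusted p of 0.0764 and no overlap. Atp5o, which joins the stalk to the head, gave -0.23 with overlapping groups. The catalytic head and central stalk had a median of -0.016 over 5 genes, with Atp5a1 at -0.12 and Atp5b, the catalytic beta subunit, at -0.016. The c ring, which turns as protons pass, is made from 3 genes whose mature products are the same protein. Atp5g1 read 13.41, 13.49 and 13.38 against 13.44, 13.36 and 13.45, a difference of -0.0082. Atp5g2 read 13.71, 13.66 and 13.71 against 13.71, 13.70 and 13.71, a difference of 0.012, and Atp5g3 read 13.16, 13.18 and 13.14 against 12.98, 13.12 and 13.10, a difference of -0.092 with an adjusted p of 0.236. The first and second overlapped between groups and Atp5g3 did not; the intervals of the first pair, -0.12 to 0.11 and -0.085 to 0.11, leave room for changes of about that size either way, and centring put Atp5g2 at -0.090 and array weights put Atp5g1 at 0.013.

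Assembly factors had a median of -0.095 over 15 genes, with 13 below 0 (86.7%, beside 43.4% of all genes) and 1 fall (6.67%, beside 4.13%). The median was -0.15 without Cre-ERT2 3 and after cyclic loess, and -0.17 after a second quantile normalization. Ndufaf1, a factor needed to build the membrane arm of complex I, gave the lowest adjusted p of the set. It read 10.85, 10.72 and 10.78 on the ERT2 arrays (10.78 ± 0.066, SD, n = 3) and 10.38, 10.30 and 10.45 on the arrays labelled Cre-ERT2 (10.38 ± 0.079, n = 3). The groups did not overlap, with the lowest control at 10.72 and the highest array labelled Cre-ERT2 at 10.45. Ndufaf1 fell by 24.6%, a log2 difference of -0.41 ± 0.058 (SE), with a limma adjusted p of 0.00941, and it was also the 1 gene of the set past an adjusted p of 0.01, which 0.956% of all genes tested passed. It passed in the 9 other settings of the gene-level fit, and in 4 of the 6 fits that left out 1 array, the exceptions being 0.060 without ERT2 1 and 0.0529 without Cre-ERT2 1. When all probe sets on the array were tested in place of genes, neither Ndufaf1 nor any other gene of the set passed, with 28 lower and 5 higher of its 125 probe sets at an unadjusted p under 0.05 in limma.

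The 7 complex I factors all had a difference below 0, with a median of -0.14. Ndufaf4 read 9.80, 9.72 and 9.67 against 9.54, 9.50 and 9.57, a difference of -0.19 ± 0.050 with a limma adjusted p of 0.0545. Ndufaf7, a methyltransferase that acts on a core subunit, read 9.37, 9.20 and 9.24 against 9.01, 8.94 and 9.15, a difference of -0.24 ± 0.069 with an adjusted p of 0.0649. Neither passed the test although the groups did not overlap. The 8 complex IV factors had a median of -0.055, with 6 below 0, no call and 2 lower at an unadjusted p under 0.05. Their lowest differences, -0.26 for each, were those of Cox17 and Cox19, which handle copper for complex IV, with adjusted p of 0.0749 and 0.0864. Cox10 and Cox15, which make haem A, gave 0.044 and -0.024.

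The rest of the pathway was read from lists of genes outside the rule. Of 13 mitochondrially encoded subunits 2 were named on the array and past the filter, ND3 of complex I at -0.12 (13.71, 13.69 and 13.61 against 13.63, 13.43 and 13.60, limma adjusted p 0.217) and COX2 of complex IV at 0.014. The groups overlapped in both, and neither had an unadjusted p under 0.05. Of 39 further assembly factors tested, 2 fell and none rose, with 34 below 0 and a median of -0.097. The falls were 5.13% of that list, near the 4.13% of all genes tested. Lrpprc, which stabilises mitochondrial messenger RNA, read 11.45, 11.46 and 11.49 against 11.25, 11.10 and 11.27, a fall of 0.26 (adjusted p 0.0343), and Timmdc1, a complex I factor, read 11.48, 11.43 and 11.42 against 11.22, 11.25 and 11.29, a fall of 0.19 (adjusted p 0.0413). In both the groups lay apart. All 3 arrays labelled Cre-ERT2 lay below the controls in 16 of the 39 (41.0%), beside 17.7% of all genes, dim ones included.

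The lists for coenzyme Q synthesis, the supply of electrons and mitochondrial carriers gave medians of the same sign as the set. Of 12 coenzyme Q synthesis genes 11 lay below 0, the median was -0.15, and 1 fell (8.33%, beside 4.13% of all genes). That gene, the methyltransferase Coq3, went from 10.06 ± 0.072 to 9.74 ± 0.060 (SD, n = 3 each), a fall of 0.32 with a limma adjusted p of 0.0196. Of 17 genes of the tricarboxylic acid cycle and pyruvate dehydrogenase 16 lay below 0, with a median of -0.15 and 3 falls (17.6%). Pdha1, a pyruvate dehydrogenase subunit, read 11.70, 11.70 and 11.67 against 11.40, 11.32 and 11.49 and fell by 0.29 (adjusted p 0.0237). Idh3a, of the NAD-linked isocitrate dehydrogenase, and Suclg2, of succinate-CoA ligase, fell by 0.22 (0.0287) and 0.37 (0.031). None of these 4 overlapped between groups. All 3 arrays labelled Cre-ERT2 lay below the controls in 7 of the 12 genes (58.3%) and 13 of the 17 (76.5%), beside 17.7% of all genes. The 17.7% takes in dim genes, whose median difference was above 0, and a share at like signal was not worked out. Of 7 other genes that feed coenzyme Q none passed, with 2 lower and none higher at an unadjusted p under 0.05; the lowest p was that of Etfa, the electron transfer flavoprotein, at -0.19. Of 14 mitochondrial carriers and uncouplers 1 fell (7.14%), the aspartate and glutamate carrier Slc25a13, by 0.29 (adjusted p 0.0454), and the median was -0.036. That median lay within the range of all genes in deciles 5 to 10, -0.061 to -0.0055. At an unadjusted limma p under 0.05, 4 of the 14 were lower and 2 higher.

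Regulators of mitochondrial gene expression had 22 genes tested, a median of -0.088, 16 below 0 and 1 fall (4.55%, near the 4.13% of all genes). In 9 of the 22 (40.9%) all 3 arrays labelled Cre-ERT2 lay below the controls, beside 17.7% of all genes, dim ones included. Tfam, which packages and transcribes mitochondrial DNA, read 10.01, 10.17 and 10.04 on the ERT2 arrays and 9.71, 9.38 and 9.78 on the arrays labelled Cre-ERT2. All 3 of these lay below the controls, Cre-ERT2 2 lowest. Tfam fell by 26.7%, a log2 difference of -0.45 ± 0.10 (SE), with a limma adjusted p of 0.0381. The factors whose letters were sought in the promoters did not pass the test: Nrf1 gave -0.15 and Gabpa -0.17.

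**Figure D5:**
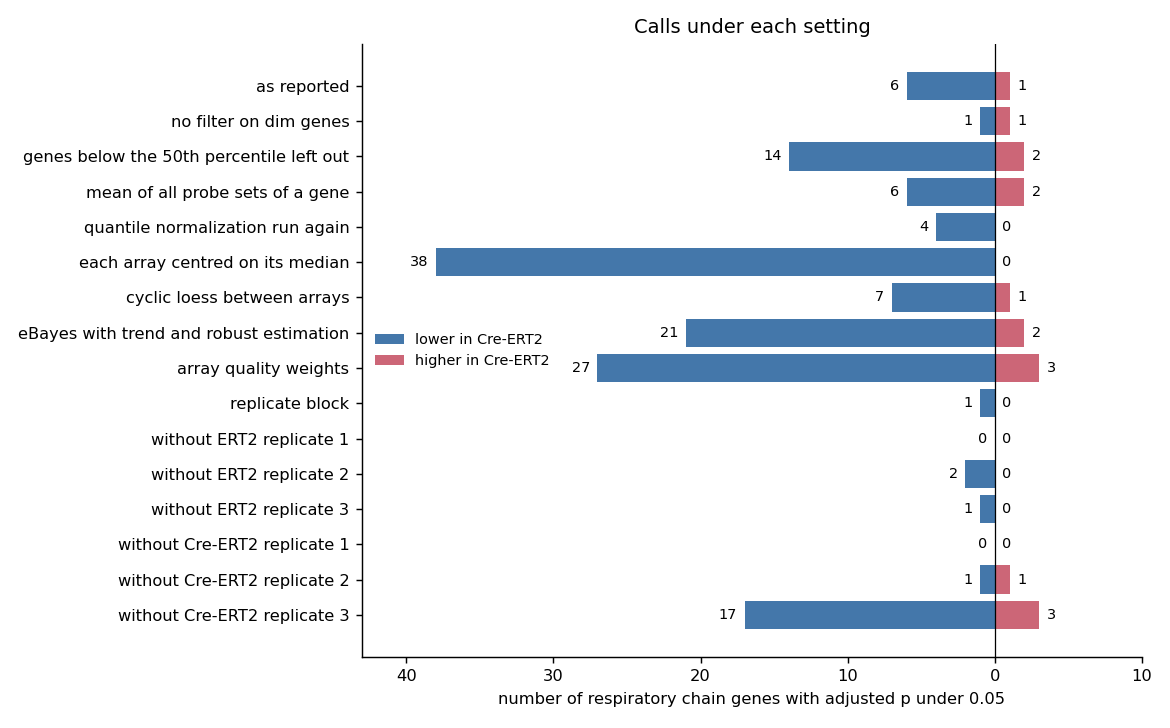
Number of respiratory chain genes with a limma adjusted p under 0.05, lower (to the left) and higher (to the right) in the arrays labelled Cre-ERT2, in the fit reported here and under each other setting. Falls range from 0 without ERT2 1 or Cre-ERT2 1 to 38 with each array centred on its median, against 6 as reported; rises range from 0 to 3.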

How the data were processed

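The deposited log2 values were made by the authors with RMA, which corrects background, quantile normalizes and summarises probes, in Partek 6.5 per the submitters' processing notes; the genome build and annotation are not given in the sources used here. From there 21789 of 35556 probe sets had exactly 1 gene symbol in the platform annotation, and the probe set with the highest mean stood for each gene. Genes under the 25th percentile of mean log2 value were left out. The difference between groups (3 arrays each) was fitted with limma 3.58.1 (lmFit and eBayes, two-sided, R 4.3.3), and p-values were adjusted by Benjamini-Hochberg across the 14953 genes tested. The number of arrays limits the precision. The fit was tested on simulated data.

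Values on all arrays are given for genes of the set past the test, the 3 lowest p per complex and subunits with tissue forms; of each further list the called genes (at most 4), or else the gene with the lowest p, are named. The set and all lists were chosen with earlier results of these data known. Of 18 genes with several probe sets, those of Atp5pb, Cycs and Ndufb11 disagreed in sign. Arrays with the same replicate number did not deviate together (r of 0.069, -0.17 and -0.40), so the numbers were not used as pairs. Scaling, filter, probe set choice, variance model, array weights, a replicate block and leaving out each array were tried as alternatives. Promoter letters were searched in RefSeq windows (GRCm38.p6).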

Additional observations from a re-analysis of the deposited data

How the results depend on the processing

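The counts of falls and rises depended on the setting, and the cause was not tested. The share of all genes called moved with them. Against 6 falls and 1 rise as reported (7.14% of the set, 7.62% of all genes), there were 1 and 1 with no filter on dim genes (2.02% and 2.19%), 14 and 2 with genes under the 50th percentile left out (17.4% and 15.7%), and 6 and 2 with probe sets averaged (8.16% and 7.67%). A second quantile normalization gave 4 and 0 (4.08% and 6.65%), cyclic loess 7 and 1 (8.16% and 7.83%), and centring arrays on their medians 38 and 0 (38.8% and 20.2%). Trended robust variances gave 21 and 2 (23.5% and 14.4%), and array quality weights 27 and 3 (30.6% and 26.7%). At a threshold of 0.01 there were 1 and 0 (0.956% of all genes), with all probe sets tested in place of genes 0 and 0 (0.547% of all probe sets), and with the replicate block 1 and 0 (1.02% and 0.983%; Ndufaf1, limma adjusted p 0.0359), a fit of numbers that did not pair the arrays. Leaving out 1 array gave 0 to 17 falls and 0 to 3 rises. The median of -0.068 was -0.17 after centring and -0.038 after cyclic loess, and -0.089 to -0.039 with 1 array left out, against a pooled SD between arrays of 0.023. It stayed below 0 in these settings. The median of complex IV, 0.037 as reported, turned to -0.018 with genes under the 50th percentile left out and to -0.065 after centring.

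Differences near 0 changed sign. Centring gave -0.090 for Atp5g2, -0.019 for Cox4i2, -0.021 for Cox6a1, -0.083 for Cox6b1 and -0.043 for Cox8a; loess gave 0.013 for Cox4i1 and array weights 0.013 for Atp5g1. With 1 array left out, Atp5g1 ran from -0.033 to 0.023, Atp5g2 from -0.0051 to 0.022, Cox4i1 from -0.073 to 0.026 and Cox6b1 from -0.0013 to 0.034. With 3 arrays a group, most genes of the set differed by less than could be called here.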
